A study of Danio rerio with 228 samples.

Results

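The gene fkbp5 was followed across 45 exposed groups and 3 DMSO groups of zebrafish embryos. It was measured by 1 probe, FKBP5_85157 (gene ENSDARG00000028396), 1 of 3183 probes for 3112 genes on the targeted panel, and was found by its symbol in the probe name. The gene was selected on its own measured levels, which were known to differ between groups of these data, so its levels and changes below are a description and carry no test. Tests are given only for other genes and for RNA quality.

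Pools of 10 whole embryos were exposed from 4 to 120 h after fertilisation to 1 of 9 perfluorinated acids, each at 5 concentrations, and all groups, controls included, held 0.1% DMSO. The carboxylic acids were PFBA, PFHxA, PFOA, PFNA and PFDA (butanoic, hexanoic, octanoic, nonanoic and decanoic), and the sulfonic acids were PFBS, PFHxS, PFOS and PFDS (butane, hexane, octane and decane). RNA was read with TempO-Seq, a targeted assay that ligates 2 neighbouring probes where both anneal to the same transcript, so a count is 1 sequenced ligation product. Concentrations (µM) were 8, 25, 80, 250 and 600 for PFBA and PFBS, 6, 20, 60, 200 and 600 for PFHxA, 4, 12, 40, 120 and 400 for PFOA, and 4, 20, 40, 200 and 450 for PFNA. They were 0.12, 0.4, 1.2, 4 and 12 for PFDA, 6, 20, 60, 200 and 400 for PFHxS, 0.4, 1.2, 4, 12 and 40 for PFOS, and 0.06, 0.2, 0.6, 2 and 6 for PFDS. Groups held 4 pools, except that PFOS groups and the upper 3 PFOA groups held 5. PFBA, PFHxA, PFBS and PFHxS share 6 DMSO pools of Ottawa fish (control_ottawa). PFOA, PFOS and PFDS share 4 DMSO pools of mixed Ottawa and Montreal fish (control_mixed), and PFDA, which no control label names, was set against the same 4 by assumption. PFNA, also in Ottawa fish, has 16 DMSO pools of its own processing batch (control_pfna), of which 4 share its RNA extraction batch. Column headers name these 4 PFNA controls and the other 12 EM, ENV and EP controls, while the sample titles call all 16 PFNA controls. The labels give no strain or genotype, and a pool averages whole animals: more cells with fkbp5 and more fkbp5 RNA per cell cannot be told apart.

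Fkbp5 encodes a co-chaperone of Hsp90 that sits on the unliganded glucocorticoid receptor and, in mammals, lowers its affinity for the hormone. Glucocorticoids switch the gene on through the receptor, which closes a short negative feedback loop, and fkbp5 RNA is widely used as a readout of receptor activity, in zebrafish larvae as well. In fish the hormone is cortisol, released by the interrenal gland under control of hypothalamic Crh and pituitary Acth. No group received a glucocorticoid, so the response to the hormone is background and was not measured here.

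Library totals were 2254364 to 4466565 counts over 216 embryo libraries (median 3217205), of which fkbp5 took up to 2267. Nothing in the labels says whether pools of a group came from separate clutches, so p-values measure the spread between these pools. As a check of the whole-embryo label, markers on the panel reached 10 CPM (CPM are counts scaled to library size by TMM, edgeR's correction for library composition) for muscle (1 of 1), liver (6 of 7), retina (3 of 3), neurons and glia (4 of 4), blood (2 of 3), cartilage (5 of 5), intestine (3 of 3) and immune cells (5 of 6). For the interrenal gland 1 of 3 did.

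In all, 5 libraries stood apart from the other pools of their groups. Their distance over 2077 probes was more than 2 times the median of 0.36 log2 units, and fkbp5 was the lowest of the group in all 5 of 5, as it was in the 10 most distant of 214 pools. How many other probes were also lowest in these pools was not counted, so this is not shown to be particular to fkbp5. Fkbp5 was at 48.6 CPM in PFHxS 400 µM pool 4 (other pools 377 or more), 21.8 CPM in PFBS 80 µM pool 3 (others 112.8 or more) and 35.2 CPM in PFOA 4 µM pool 1 (others 239 or more). It was at 37.7 CPM in PFHxA 200 µM pool 1 (others 100.0 or more) and at 27.6 CPM in PFNA DMSO pool 10 (others 46.1 or more). These 5 libraries held 2531181 to 3745292 counts, within the range of the rest. Their summed markers were below those of every other pool of the group for muscle (1 marker), liver (6 markers) and intestine (3 markers) in 5 of 5, and above them for cartilage (5 markers) in 5 of 5. The 3 interrenal markers were below in 4 of 5 and the 3 retinal markers above in 4 of 5. The part of tissue makeup or handling in the low fkbp5 was not tested. Changes from DMSO that use these pools are given below with and without them, for PFNA only at the highest concentration. Comparisons between chemicals include these pools.

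**Figure D1:**
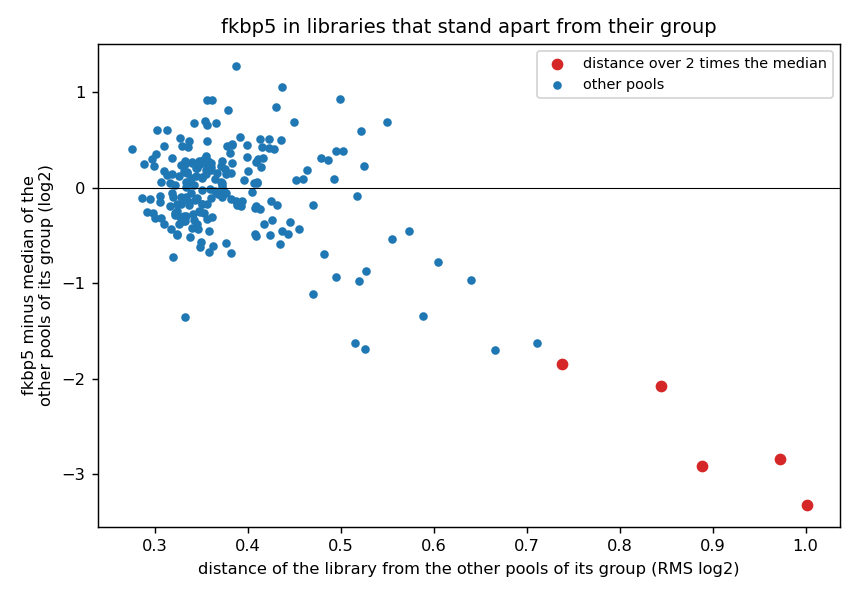
Each point is 1 of 214 pools, with its root-mean-square log2 distance from the other pools of its group over 2077 probes (x) and its fkbp5 level minus the median of the other pools (y, log2). The 5 pools past 2 times the median distance, in red, all lie far below 0.

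Fkbp5 was highest in embryos exposed to the most PFDS. Its mean was 590.3 ± 41.6 CPM at 6 µM PFDS, 453 ± 55.8 CPM at 200 µM PFHxS and 431 ± 28.3 CPM at 450 µM PFNA (SD, n = 4 each, all libraries on 1 TMM scale). The lowest mean, 93.3 ± 33.996 CPM, was at 60 µM PFHxA, and 4 of the 5 PFHxA groups were among the 6 lowest means of exposed groups. DMSO pools themselves differed between cohorts. They averaged 307 ± 99.3 CPM in mixed fish (n = 4), 238 ± 47.2 CPM in the Ottawa fish shared by 4 chemicals (n = 6) and 125.3 ± 68.9 CPM in the Ottawa fish of the PFNA batch (n = 16). With the 48 groups put in order, the ranges of 46 of the 47 neighbouring pairs overlapped. Only 6 µM PFDS lay apart from its neighbour, 200 µM PFHxS.

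**Figure D2:**
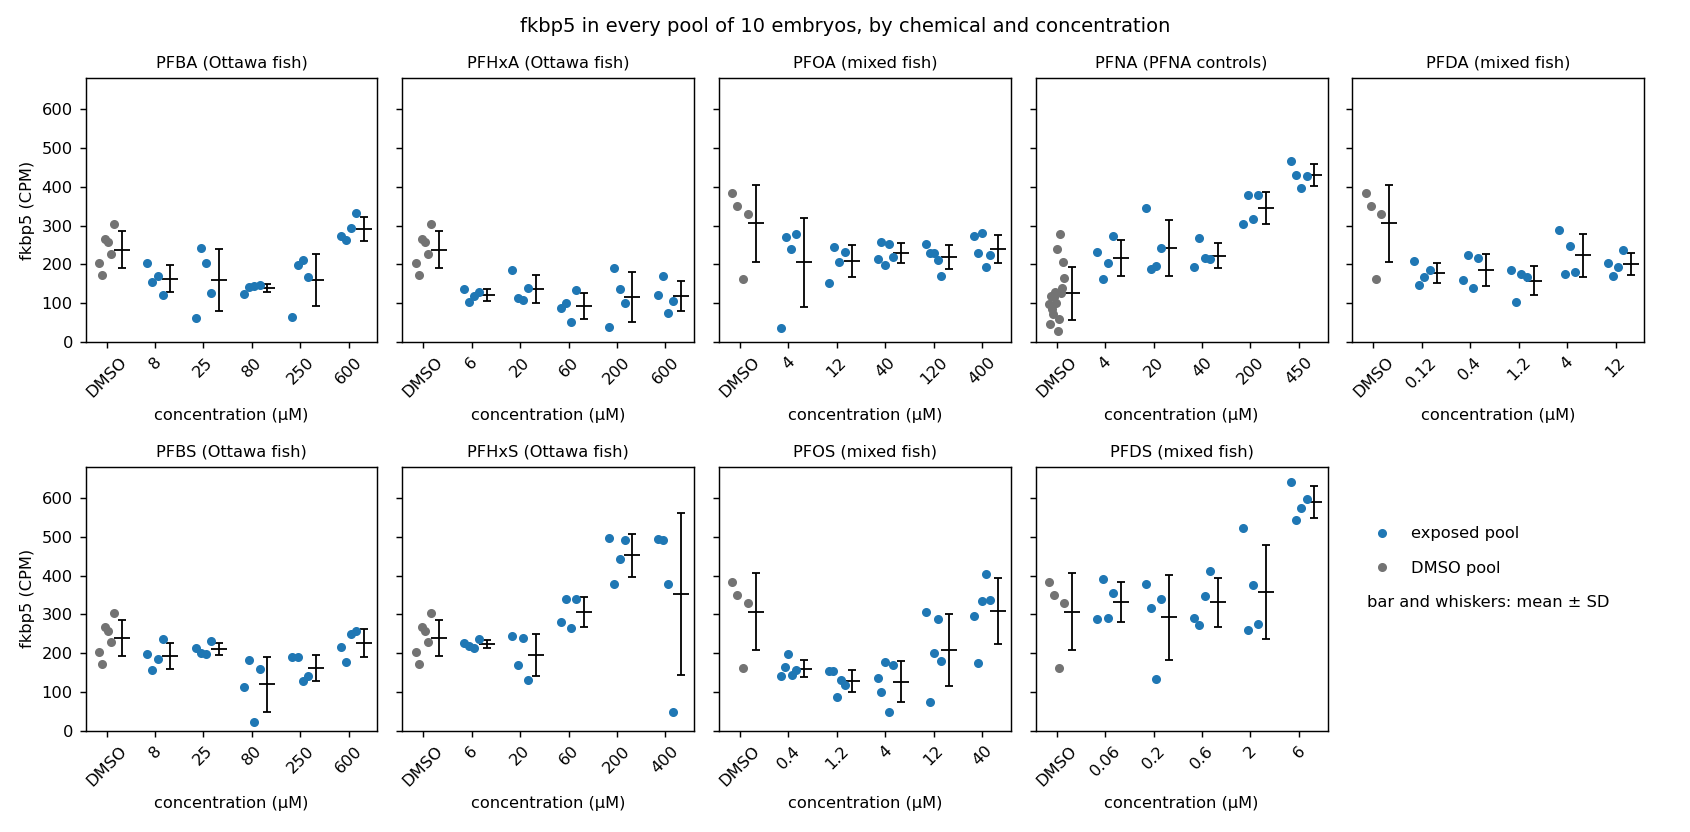
Fkbp5 in CPM (y) in every pool, for each chemical by concentration in µM (x), with its DMSO pools in grey at the left and mean ± SD as bars. Group means are highest at 6 µM PFDS, 200 µM PFHxS and 450 µM PFNA, and lie low at all 5 PFHxA concentrations.

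Fkbp5 was higher than in DMSO pools at every PFNA concentration. The 4 pools at 450 µM held 467, 432, 398 and 429 CPM, and the 4 at 200 µM held 305, 379.98, 316 and 380.03 CPM. The 16 PFNA DMSO pools lay between 27.6 and 279 CPM with a median of 116.6. All 8 pools of the upper 2 concentrations were therefore above every DMSO pool, a pattern shown by 6.67% of 2848 probes at 450 µM and 2.14% at 200 µM. Log2 changes from DMSO, each from a fit of the chemical with its own DMSO pools, were 0.79 ± 0.29, 0.95 ± 0.29, 0.84 ± 0.29, 1.46 ± 0.28 and 1.78 ± 0.28 (SE) at 4, 20, 40, 200 and 450 µM. The last is 3.44-fold. At 4 µM the change ranked 17 from the top of 2848 probes, which is a description only, since the gene was chosen on these levels. There 0 of 4 pools were above every DMSO pool.

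The size of the PFNA change depends on the DMSO pools used. By extraction batch they averaged 86.4 ± 30.4 CPM (batch 11), 104.1 ± 24.8 (batch 12), 151.5 ± 126.1 (batch 13) and 159.3 ± 35.5 (batch 14, which also holds all PFNA pools; SD, n = 4 each). In column headers these are the EM, ENV, EP and PFNA controls in that order, so control set and extraction batch cannot be told apart. Against the 4 of batch 14 alone the changes were 0.45, 0.60, 0.49, 1.11 and 1.44 from 4 to 450 µM. Against 4 µM PFNA in place of DMSO, the change at 450 µM was 0.99. Without DMSO pool 10, which stood apart, it was 1.72.

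Fkbp5 was lower than in DMSO pools at all 5 PFHxA concentrations, with no order by concentration. Pools held 120.9, 168.9, 75.5 and 106.5 CPM at 600 µM and 88.1, 100.6, 51.1 and 133.4 CPM at 60 µM, against 204, 171.6, 267, 258, 227 and 303 CPM in Ottawa DMSO pools. All 4 pools were below every DMSO pool at 6, 60 and 600 µM, as were 1.64%, 1.53% and 7.1% of 2746 probes. Log2 changes were −0.96 ± 0.29, −0.81 ± 0.29, −1.34 ± 0.29, −1.02 ± 0.29 and −1.01 ± 0.29 (SE) at 6, 20, 60, 200 and 600 µM. Without the pool that stood apart, the change at 200 µM was −0.73. With 6 µM PFHxA in place of DMSO, the change at 600 µM was −0.05, and those at 20 to 200 µM lay between −0.38 and 0.16. With extraction batch as a term the changes from DMSO were −1.62 at 6 µM and −1.38 at 600 µM. Only Ottawa DMSO pool 6 (303 CPM, the highest) shares an extraction batch, batch 8, with PFHxA pools. All PFHxA values with this term, here and below, therefore rest on that DMSO pool. Within plates, the difference of means at 600 µM was −1.17 on plate 1 (2 pools against 4) and −0.80 on plate 2 (2 against 2).

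The largest change of each other carboxylic acid was smaller than the largest of PFNA or PFHxA. Single changes overlapped: −0.95 ± 0.22 at 1.2 µM PFDA lay beside −0.96 ± 0.29 at 6 µM PFHxA. PFOA and PFDA changes were below 0 at every concentration, as with PFHxA. PFBA changes were −0.54 ± 0.27, −0.59 ± 0.27 and −0.56 ± 0.27 (SE) at 8, 25 and 250 µM. PFBA pools held 273, 262, 294 and 333 CPM at 600 µM, of which 1 exceeded all Ottawa DMSO pools, and the log2 change was 0.28 ± 0.26 (SE). At 80 µM PFBA all 4 pools (123.3, 141.6, 143.8 and 146.6 CPM) were below all DMSO pools, as were 1.06% of 2747 probes, and the change was −0.77 ± 0.27. PFOA changes ran from −0.59 ± 0.32 at 4 µM to −0.37 ± 0.30 at 400 µM, and the 4 µM value was −0.23 without the pool that stood apart. With extraction batch as a term the PFOA values were −1.06 at 4 µM and −0.68 at 400 µM. PFDA changes ran from −0.95 ± 0.22 at 1.2 µM to −0.46 ± 0.22 at 4 µM. At 12 µM PFDA held 201 ± 27.8 CPM (n = 4), and its change of −0.62 ± 0.22 was −0.12 with extraction batch as a term. With this term PFDA values rest on mixed DMSO pools 3 and 4 (161.6 and 330.4 CPM). Those of PFOA rest on pools 1 and 2 (384 and 351 CPM). Every PFOA and PFDA pool was below the mean of the mixed DMSO pools, while 1 of these DMSO pools, at 161.6 CPM, was itself below most of them.

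With PFHxS, the mean of fkbp5 was highest at 200 µM. The 4 pools held 498, 378, 443 and 492 CPM at 200 µM and 280.0, 339, 266 and 341 CPM at 60 µM, against 171.6 to 303 CPM in Ottawa DMSO pools. All 4 pools at 200 µM were above every DMSO pool, as were 5.89% of 2735 probes. At 400 µM 3 pools held 493.5, 492 and 377 CPM, and pool 4, which stood apart, held 48.6 CPM. Log2 changes were −0.10 ± 0.32, −0.30 ± 0.32, 0.35 ± 0.31, 0.93 ± 0.31 and 0.58 ± 0.31 (SE) at 6, 20, 60, 200 and 400 µM. Without pool 4 the last was 0.95, and with extraction batch as a term it was 0.33. The value with this term rests on Ottawa DMSO pools 3 and 6 (267 and 303 CPM). On plate 1, which holds that pool, the 400 µM difference was −0.91 (2 pools against 4), and on plate 2 it was 1.32 (2 against 2).

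PFOS gave low fkbp5 at low concentrations and a level near DMSO at the highest. At 1.2 µM the 5 pools held 152.5, 153.9, 86.9, 131 and 117.1 CPM, all below the 4 mixed DMSO pools (384, 351, 161.6 and 330.4 CPM), as were 2.97% of 2761 probes. At 40 µM they held 296, 175, 335, 405 and 336 CPM and overlapped the DMSO pools. Log2 changes were −0.95 ± 0.31, −1.26 ± 0.32, −1.30 ± 0.32, −0.56 ± 0.31 and 0.02 ± 0.31 (SE) at 0.4, 1.2, 4, 12 and 40 µM. With 0.4 µM PFOS in place of DMSO, the change at 40 µM was 0.97, and with extraction batch as a term it was −0.35. The value with this term rests on DMSO pools 1 and 2 (384 and 351 CPM). DMSO pool 3 (161.6 CPM) sets part of the changes without this term: leaving it out gave −1.15 at 0.4 µM and −0.19 at 40 µM.

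With PFDS, fkbp5 was near its DMSO level up to 2 µM and higher at 6 µM. The 4 pools at 6 µM held 643, 544, 575 and 599 CPM, all above the highest mixed DMSO pool at 384 CPM, as were 9.34% of 2709 probes. Log2 changes were 0.12 ± 0.26, −0.07 ± 0.26, 0.10 ± 0.26, 0.22 ± 0.26 and 0.95 ± 0.26 (SE) at 0.06, 0.2, 0.6, 2 and 6 µM. At 6 µM the difference was 0.91 on plate 1 (2 pools against 1) and 1.00 on plate 2 (2 against 3), and it was 0.82 against 0.06 µM PFDS. PFBS, the shortest sulfonic acid, gave −0.08 ± 0.29 at 600 µM. Its lowest value, −1.01 ± 0.30 at 80 µM, was −0.66 without the pool that stood apart.

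**Figure D3:**
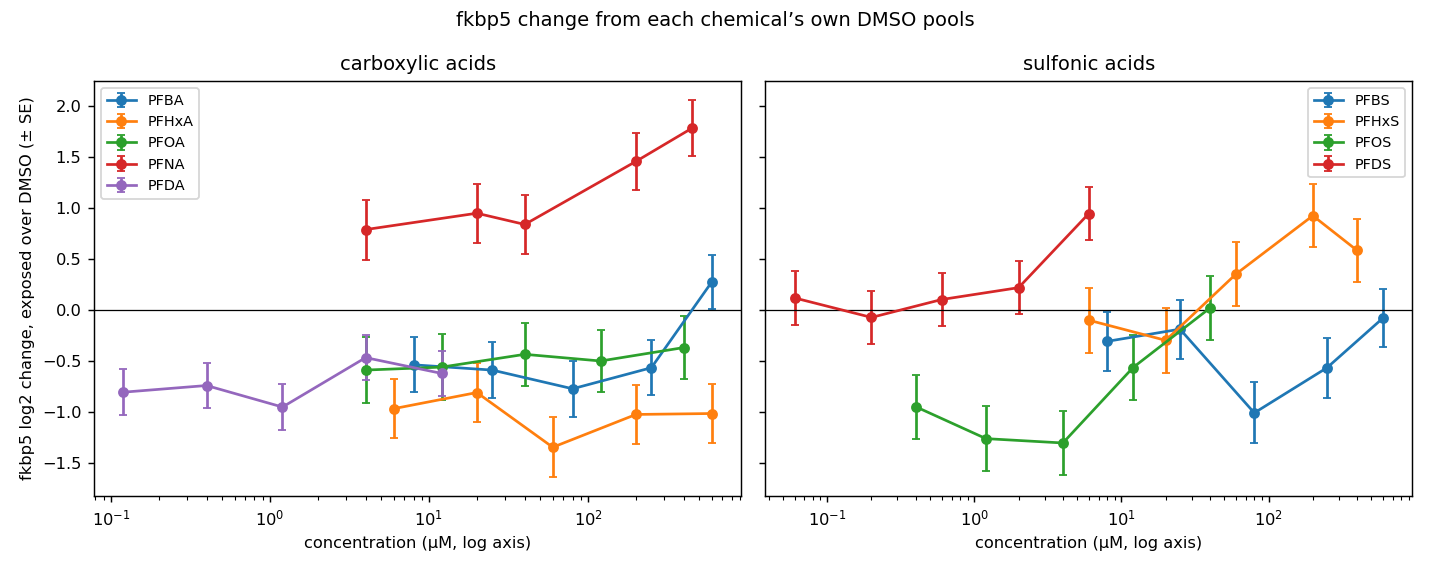
Log2 change of fkbp5, exposed over DMSO, with the standard error of the fit (y) against concentration in µM on a log axis (x), for carboxylic acids (left) and sulfonic acids (right). PFNA lies above 0 throughout and reaches 1.78. PFHxA, PFOA, PFDA and PFBS lie below 0 throughout, and PFOS climbs from −1.30 at 4 µM to 0.02 at 40 µM.

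Chemicals were set side by side at 32 matched concentrations, 20 of them with the same DMSO pools. The sulfonic acid PFHxS and the carboxylic acid PFHxA are both named for a hexane chain. This pair and the butane and octane pairs below are matched by name, and the acid group is not their only difference. Fkbp5 averaged 306 ± 39.2 CPM with PFHxS and 93.3 ± 33.996 CPM with PFHxA at 60 µM, a log2 difference of 1.69 ± 0.37 (SE). At 200 µM it averaged 453 ± 55.8 CPM with PFHxS and 116.2 ± 64.2 CPM with PFHxA (1.96 ± 0.37), and at 6 µM the difference was 0.87 ± 0.36. The PFHxA mean at 200 µM includes the pool that stood apart. Ranges did not overlap at 6, 60 and 200 µM but overlapped at 20 µM, where the difference was 0.51 ± 0.36.

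For the butane pair, PFBS minus PFBA lay between −0.35 ± 0.33 (at 600 µM) and 0.40 ± 0.33 (at 25 µM) over the 5 shared concentrations. Ranges overlapped at 4 of the 5, and at 600 µM PFBS pools (177.3 to 257 CPM) were below PFBA pools (262 to 333 CPM). The octane pair changed order with concentration. PFOS minus PFOA was −0.72 ± 0.32 at 4 µM, −0.01 ± 0.32 at 12 µM and 0.43 ± 0.31 at 40 µM, and ranges overlapped at all 3. The PFOA pools at 4 µM include the pool that stood apart. Among carboxylic acids at 600 µM, PFHxA held 117.9 ± 38.9 CPM and PFBA 291 ± 31.1 CPM, a difference of −1.29 ± 0.33 with no overlap. PFNA and PFOA, which differ by 1 carbon but have different DMSO pools, had similar levels at 40 µM (223 ± 31.4 and 229 ± 26.2 CPM). Their changes from DMSO differed there by 1.26 ± 0.46.

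Of 20 genes listed for the FK506-binding protein family, 4 others were on the panel. The closest relative, fkbp4, encodes the Hsp90 co-chaperone that competes with Fkbp5 for the receptor and, in mammals, favours its transport to the nucleus. It fell at the highest concentrations of all 3 longer sulfonic acids. It averaged 120.9 ± 30.6 CPM in 400 µM PFHxS and 197 ± 20.8 CPM in Ottawa DMSO pools (log2 −0.70 ± 0.14, adjusted p = 0.000415 in edgeR's quasi-likelihood test with Benjamini-Hochberg adjustment, used throughout). With 40 µM PFOS it averaged 127.5 ± 24.3 CPM, against 191 ± 24.1 CPM in mixed DMSO pools (−0.58 ± 0.13, adjusted p = 0.00161). With 6 µM PFDS the change was −0.49 ± 0.13 (adjusted p = 0.0114, but 0.0605 without PFDS pool 4 and 0.101 with extraction batch as a term). Of all probes 8.96% fell in PFHxS, 14.3% in PFOS and 4.36% in PFDS.

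In 600 µM PFHxA, where fkbp5 was low, fkbp4 rose to 261 ± 24.8 CPM, against 196 ± 20.2 CPM in DMSO pools (0.41 ± 0.10, adjusted p = 0.00555, and 0.406 with extraction batch as a term). In 450 µM PFNA, where fkbp5 was 3.44-fold higher, fkbp4 averaged 197 ± 13.9 CPM against 209 ± 34.9 CPM in DMSO pools (adjusted p = 0.677). The cytosolic fkbp1aa, which binds the drug FK506, stayed between log2 −0.10 and 0.19 at the highest concentration of all 9 chemicals, with no adjusted p under 0.238. The endoplasmic reticulum member fkbp14 fell to 2.76 ± 1.44 CPM in 450 µM PFNA, against 6.53 ± 2.73 CPM in DMSO pools (−1.23 ± 0.41, adjusted p = 0.0173), and that call was lost without PFNA pool 1, 3 or 4 (adjusted p up to 0.0781). The related aip passed no test at the highest concentrations, with log2 changes of −0.24 to 0.46.

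The receptor gene itself, nr3c1, passed no test at 450 µM PFNA or 6 µM PFDS, where fkbp5 was high. It averaged 58.4 ± 13.4 CPM in 450 µM PFNA and 81.7 ± 36.9 CPM in DMSO pools (log2 −0.49, adjusted p = 0.151), and 67.7 ± 18.5 CPM in 6 µM PFDS and 74.6 ± 5.74 CPM in DMSO pools (−0.14, adjusted p = 0.649). It fell in 600 µM PFHxA to 43.6 ± 9.80 CPM, against 83.6 ± 14.8 CPM in DMSO pools (−0.93 ± 0.29, adjusted p = 0.0215, but 0.0815 without PFHxA pool 3 and 0.216 with extraction batch as a term). In 40 µM PFOS it averaged 38.4 ± 26.6 CPM, against 72.4 ± 6.08 CPM in DMSO pools (adjusted p = 0.0496), and that call was lost without any of 7 of the 9 libraries (adjusted p up to 0.129). In 400 µM PFHxS its change of −0.20 ± 0.25 had an adjusted p of 0.621, and 0.00859 without pool 4, which stood apart. Of the tested steroid receptors and coregulators, 2 of 8 fell in PFHxA, 2 of 8 in PFHxS and 2 of 7 in PFOS, against 9.5%, 8.96% and 14.3% of all probes, and 1 of 9 rose in PFNA and 1 of 8 in PFOA, against 16.2% and 1.28%. In the other 4 chemicals edgeR called 0, with 1 member at an unadjusted p under 0.05 in PFBA and 0 in PFDA, PFBS and PFDS. The acetyltransferase gene crebbpa fell in 40 µM PFOS (−1.80 ± 0.39, adjusted p = 0.00079, and 0.148 with 0.4 µM PFOS in place of DMSO). Without 1 library at a time, the fall of nrip1a in PFHxA was lost in 9 of 10 fits. The falls of ep300a and nrip1a in PFHxS were lost in 4 and 3 of 10. The rise of ep300a in PFNA was lost in 2 of 20, and that of crebbpa in PFOA in 6 of 9. The ep300a rise was also lost against the DMSO pools of the same extraction batch (adjusted p = 0.112) and against 4 µM PFNA (adjusted p = 0.25). With extraction batch as a term the crebbpa rise in PFOA was lost (adjusted p = 0.202).

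Other genes known to respond to glucocorticoids, mostly in mammals, rose at the highest concentrations of PFNA, PFHxS and PFDS, where fkbp5 was also higher. Of 54 such genes listed, 19 were on the panel and 18 were tested. In 450 µM PFNA 12 of 18 rose, against 16.2% of all 2848 probes, and their median log2 change was 0.68, against −0.09 for all probes. In 400 µM PFHxS 10 of 18 rose, against 12% of 2735 probes (medians 0.57 and 0.01), and in 6 µM PFDS 8 of 18 rose, against 5.87% of 2709 (medians 0.55 and −0.02). The PFDS count was 5 without PFDS pool 4 or without DMSO pool 3. With extraction batch as a term the PFHxS count was 5. For these alternative fits the share of all probes called was not computed. The list was drawn up with results of these data known, so these counts describe it and are no independent evidence of its direction.

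The named members were those with the smallest p, except klf9 in PFNA, which was chosen after values were seen. Its PFNA call at 450 µM was not repeated in the alternative fits. The cortisol-inactivating enzyme gene hsd11b2 was at 1184 ± 117.2 CPM in 450 µM PFNA and 559 ± 83.7 CPM in DMSO pools (1.08 ± 0.10, adjusted p = 7.47e-11). It was at 1593 ± 135.03 CPM in 6 µM PFDS and 806 ± 146.99 CPM in DMSO pools (0.98 ± 0.14, adjusted p = 8.15e-05), and it rose by 0.97 ± 0.18 in 400 µM PFHxS (adjusted p = 0.000211). The transcription factor gene klf9, a classical receptor target, rose by 0.99 ± 0.15 in PFNA (adjusted p = 1.85e-06), by 0.78 ± 0.18 in PFDS (adjusted p = 0.0056) and by 0.72 ± 0.16 in PFHxS (adjusted p = 0.00127, and 0.331 with extraction batch as a term). In PFNA angptl4, an inhibitor of lipoprotein lipase, rose by 1.17 ± 0.11 (adjusted p = 1.87e-10), the glutamine synthetase gene glulb by 0.95 ± 0.12 (adjusted p = 3.79e-08) and the transcription factor gene cebpb by 2.00 ± 0.26 (adjusted p = 1.6e-07). Its relative cebpd rose by 1.31 ± 0.16 in PFHxS (adjusted p = 7.16e-07) and by 1.19 ± 0.20 in PFDS (adjusted p = 0.000353). The cytokine signalling inhibitor gene socs3a rose by 1.42 ± 0.24 in PFDS (adjusted p = 0.000353). In PFHxS glulb rose by 0.82 (adjusted p = 1.27e-05).

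List members were called higher in PFNA from 4 µM on. At 4, 20, 40 and 200 µM, 2, 3, 8 and 7 of 18 members rose, against 0.211%, 1.09%, 2.84% and 5.65% of all probes. The 2 at 4 µM were hsd11b2 (804 CPM in PFNA, 559 CPM in DMSO pools, adjusted p = 0.0167) and klf9 (247 CPM in PFNA, 155.1 CPM in DMSO pools, adjusted p = 0.037). These PFNA calls are against all PFNA DMSO pools, most of them of other extraction batches than the exposed pools. They were not repeated against the DMSO pools of the same extraction batch. In PFHxS 8 of 18 rose at 200 µM, against 4.2% of probes.

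PFOS and PFHxA gave other pictures. In 40 µM PFOS 8 of 18 members rose, against 12.6% of 2761 probes, and 1 fell, while fkbp5 was at its DMSO level. There cebpd rose by 0.85 ± 0.19 (adjusted p = 0.00132), socs3a by 1.06 ± 0.25 (adjusted p = 0.00211) and glulb by 0.60 ± 0.14 (adjusted p = 0.00229), and the clock gene per1b fell (−1.24 ± 0.26, adjusted p = 0.000718, and 0.0792 with 0.4 µM PFOS in place of DMSO). With extraction batch as a term 3 of 18 were called, and cebpd (adjusted p = 0.0874) and socs3a (adjusted p = 0.105) were not among them. The share of all probes called with this term was not computed, so the lower count is not shown to be particular to the list. At 4 µM PFOS, where the fkbp5 change was the lowest of the 5, 2 of 18 members fell and 1 rose, against 2.9% and 1.45% of all probes. The gene tsc22d3, whose mammalian form Gilz is a classical receptor target, fell to 56.3 CPM, against 120.7 CPM in DMSO pools (−1.10 ± 0.27, adjusted p = 0.0143), and per1b fell by 0.98 ± 0.26 on the log2 scale (adjusted p = 0.0284). The kinase gene sgk2a rose to 82.4 CPM, against 50.7 CPM in DMSO pools (0.70 ± 0.17, adjusted p = 0.0143).

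In 600 µM PFHxA 6 of 18 members fell, against 9.5% of 2746 probes, and 1 rose, against 10.8%. The smallest p was that of klf9, at 60.2 ± 5.58 CPM and 162.4 ± 48.4 CPM in DMSO pools (−1.43 ± 0.17, adjusted p = 1.64e-06). With it fell cebpd (−0.65 ± 0.12, adjusted p = 0.000226), the transcription factor gene foxo3b (−0.78 ± 0.17, adjusted p = 0.00188, and 0.546 with 6 µM PFHxA in place of DMSO) and the repressor gene bcl6aa (−0.81 ± 0.18, adjusted p = 0.00251, and 0.806 with extraction batch as a term). At 6, 20, 60 and 200 µM PFHxA, where fkbp5 was also low, edgeR called 0 of 18, against 0.546%, 0.546%, 1.2% and 1.02% of all probes. At an unadjusted p under 0.05, 3, 3, 6 and 1 members were lower there and 2, 1, 0 and 3 higher. In 400 µM PFOA 1 member passed the test, against 1.25% of 2728 probes lower. It was cebpb (−1.45 ± 0.38, adjusted p = 0.0315, and 0.000843 with extraction batch as a term), and it was lost without any of 6 of the 9 libraries. Against the same DMSO pools (64.1 ± 46.7 CPM, SD) cebpb was also called lower at 12, 40 and 120 µM (adjusted p = 0.0161, 0.00875 and 0.0408). The phosphatase gene dusp1 was called lower at 40 µM (adjusted p = 0.038). In 600 µM PFBA, 12 µM PFDA and 600 µM PFBS edgeR called 0 of 18, against 0.146%, 0.583% and 0.875% of all probes. At an unadjusted p under 0.05 there were 4, 1 and 7 members, and DESeq2 called 0, 0 and 4. All 7 in PFBS were lower.

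**Figure D4:**
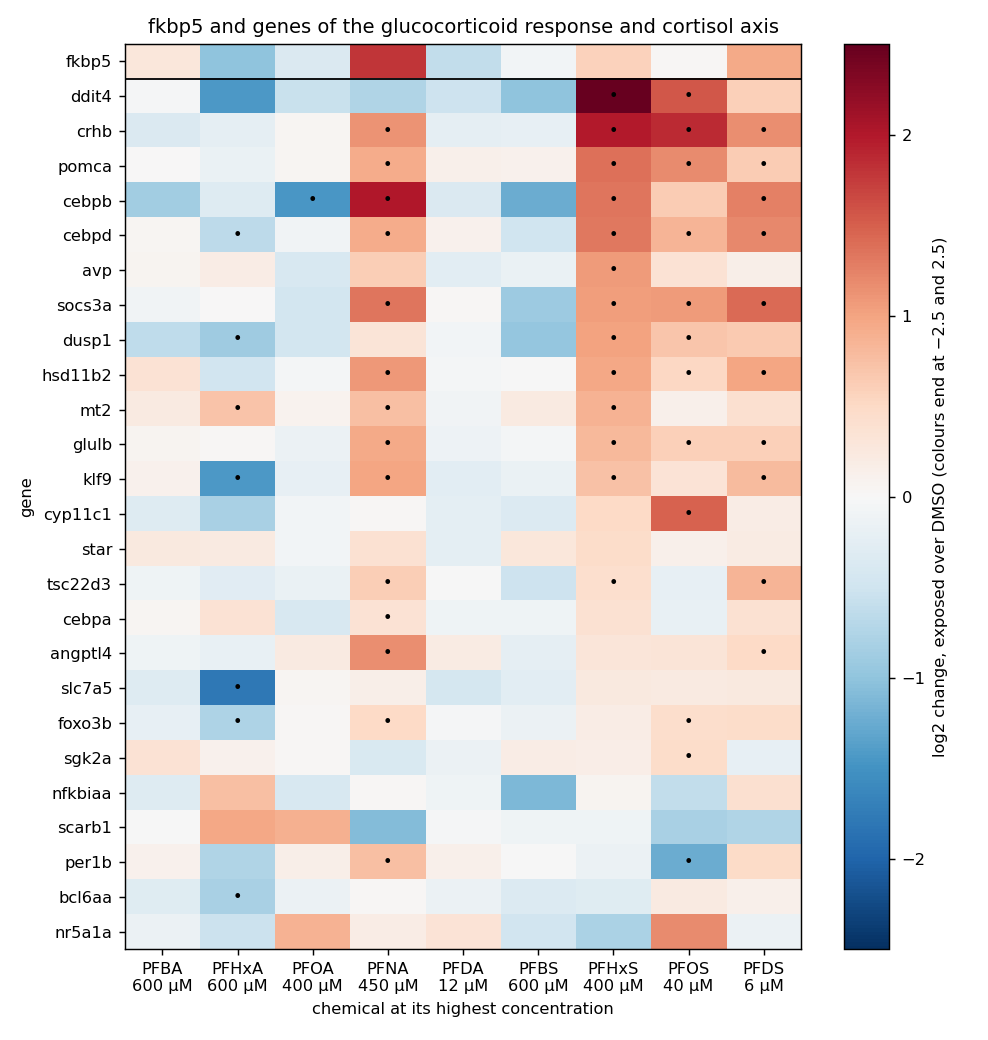
Log2 change, exposed over DMSO, at the highest concentration of each chemical (columns, in µM) for fkbp5 (top row) and for the tested genes of the glucocorticoid-responsive and cortisol axis lists (other rows, in order of their change in PFHxS). Dots mark an adjusted p under 0.05, and fkbp5 was not tested. Most rows are red in PFNA, PFHxS, PFOS and PFDS.

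Genes that drive cortisol release rose in the same 4 chemicals, with fkbp5 higher in 3 of them. Of 8 tested members of the cortisol axis list (9 for PFNA), 3 rose in PFNA, 4 in PFHxS, 4 in PFOS and 3 in PFDS, against 16.2%, 12%, 12.6% and 5.87% of all probes, and hsd11b2, counted in both lists, is 1 in each. In PFNA 1 member fell, against 16.9% of all probes: the steroid synthesis gene cyp17a1, at 0.175 CPM in PFNA and 1.46 CPM in DMSO pools (adjusted p = 0.0255), a call lost without PFNA pool 1, 2 or 3. The corticotropin-releasing hormone gene crhb rose by 1.97 ± 0.22 in 400 µM PFHxS (78.5 ± 43.5 CPM, and 20.0 ± 2.31 CPM in DMSO pools, adjusted p = 2.4e-07) and by 1.87 ± 0.22 in 40 µM PFOS (57.5 ± 13.1 CPM, and 15.8 ± 2.98 CPM in DMSO pools, adjusted p = 4.08e-07). It rose by 1.15 ± 0.20 in 6 µM PFDS (adjusted p = 0.000391) and by 1.13 ± 0.18 in 450 µM PFNA (adjusted p = 6.2e-06). The gene pomca, which encodes the precursor of Acth, rose by 1.38 ± 0.17 in PFHxS (adjusted p = 1.05e-06), by 1.18 ± 0.20 in PFOS (adjusted p = 4.56e-05) and by 0.93 ± 0.14 in PFNA (adjusted p = 1.8e-06). In PFDS its rise of 0.64 ± 0.19 (adjusted p = 0.027) was lost without PFDS pool 4 or DMSO pool 2 or 3 (adjusted p up to 0.146). The vasopressin gene avp rose in PFHxS (1.07 ± 0.23, adjusted p = 0.00138, and 0.0619 with extraction batch as a term). The cortisol synthesis gene cyp11c1 rose in PFOS (1.47 ± 0.47, adjusted p = 0.0185), which was lost without DMSO pool 1 or 4 (adjusted p up to 0.0852). Summed over 3 interrenal markers, the exposed and DMSO ranges overlapped at the highest concentration of all 9 chemicals. Of these markers only star (mean 15.5 CPM) reached 10 CPM, so the sums say little of the others, cyp11c1 included.

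Genes of a list of Hsp90, Hsp70 and co-chaperones, which includes inducible heat shock genes, rose in chemicals with high and with low fkbp5. Not all of them are known to hold the receptor with Fkbp5. Of 10 tested members 4 rose in PFNA, 4 in PFHxS, 4 in PFOS, 3 in PFDS and 5 in PFHxA, against 16.2%, 12%, 12.6%, 5.87% and 10.8% of all probes. With extraction batch as a term only 1 member was called in each of PFHxA and PFDS, and the share of all probes called with it was not computed. In PFNA and PFOS the inducible Hsp70 genes moved most: hsp70.3 rose by 3.94 ± 0.23 in PFNA (adjusted p = 3.55e-16) and by 3.97 ± 0.37 in PFOS (adjusted p = 3.57e-09). The Hsp90 gene hsp90aa1.2 rose by 1.68 ± 0.16 in PFNA (adjusted p = 8.78e-11), by 2.74 ± 0.19 in PFOS (adjusted p = 7.43e-12) and by 1.17 ± 0.15 in PFHxA (adjusted p = 3.28e-06). It was also called in PFOA (0.72 ± 0.15, adjusted p = 0.0054, and 0.237 with extraction batch as a term), the 1 member of the list called there, where fkbp5 changed by −0.37 ± 0.30. Background percentages for PFOA were 1.28% higher and 1.25% lower of 2728 probes.

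The probes with the pattern most like that of fkbp5 were sought over the 48 group means of log2 CPM, each centred on its cohort, among 2047 probes of 10 CPM or more. The points share libraries and scaling, so the correlations are a description. They were highest for xiap, a caspase inhibitor (Pearson r = 0.94), hsd11b2 (0.90), the inositol phosphate kinase gene itpkcb (0.86), the membrane sorting gene vps4b (0.83) and the cytokine signalling inhibitor gene socs2 (0.81). Next came tmbim1a (0.80), the co-chaperone gene dnajb6b (0.78) and klf9 (0.78). The median r was −0.01, and 5% of probes were above 0.59. The lowest were pdia5 (−0.77), the nuclear pore gene nup133 (−0.78) and the type I collagen gene col1a1a (−0.78). Leaving out the 5 pools that stood apart put itpkcb first (0.95), with xiap at 0.95, hsd11b2 at 0.92 and klf9 at 0.83.

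Xiap was above all DMSO pools where fkbp5 was highest in the mixed and PFNA cohorts. It was at 803 ± 56.8 CPM in 6 µM PFDS and 527 ± 94.8 CPM in mixed DMSO pools, and at 547 ± 28.4 CPM in 450 µM PFNA and 253 ± 60.7 CPM in PFNA DMSO pools. At 60 µM PFHxA it was at 287 ± 69.5 CPM, against 381 ± 35.5 CPM in Ottawa DMSO pools (SD). Between pools of the same group, r with fkbp5 was 0.82 for xiap, 0.72 for hsd11b2 and 0.35 for klf9, and 0.73, 0.65 and 0.49 without the 5 pools. The highest within groups was that of the constitutive Hsp70 gene hspa8 (0.83, and 0.68 without the 5 pools), whose r over group means was 0.58. Within groups 5% of probes had r above 0.67, and above 0.48 without the 5 pools.

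**Figure D5:**
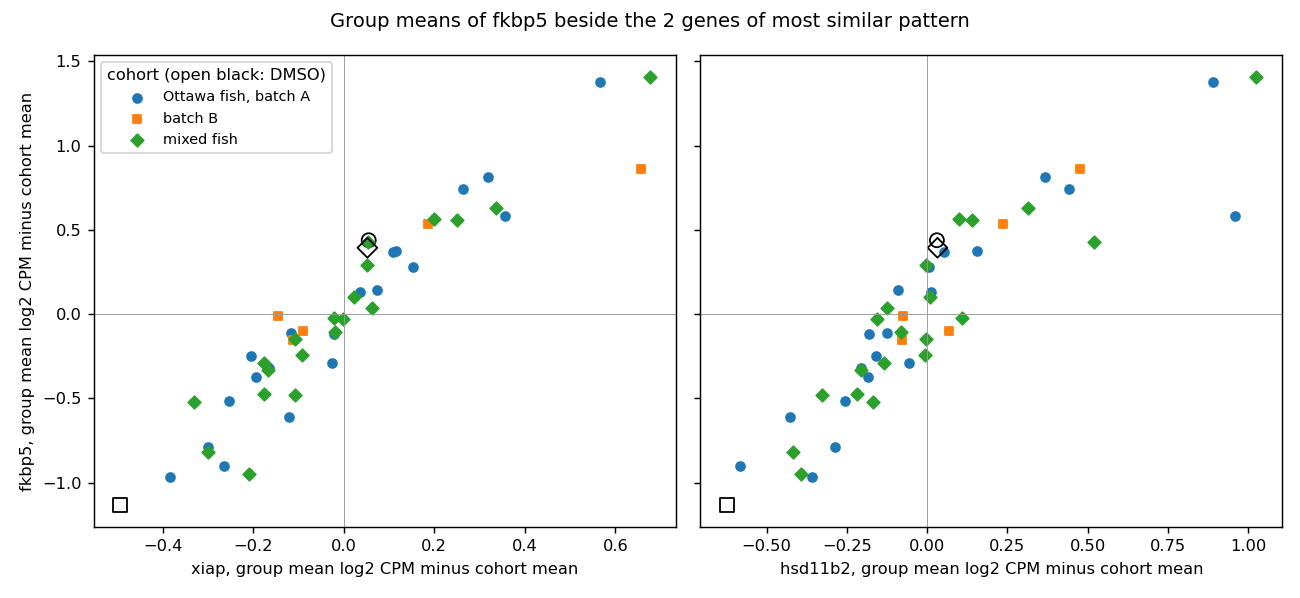
Group means of log2 CPM minus the mean of their cohort for fkbp5 (y) against xiap (left x) and hsd11b2 (right x) in 48 groups, with shapes for cohorts and open black symbols for DMSO groups. High fkbp5 goes with high levels of the other gene in both panels (r = 0.94 and 0.90).

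RNA quality was set beside fkbp5 at each highest concentration by 18 exact two-sided permutation tests. None had a Benjamini-Hochberg adjusted p under 0.05 (smallest 0.114). The RNA integrity number was 9.38 ± 0.21 in 450 µM PFNA and 9.69 ± 0.17 in its DMSO pools (SD, n = 4 and 16, exact p = 0.00826), and the RNA yield was 176.75 ± 38.2 ng/µL in PFNA and 250.1 ± 51.1 ng/µL in DMSO pools (exact p = 0.0151). Both had an adjusted p of 0.114. Tissue markers also moved with the groups. In 450 µM PFNA the summed retinal markers (3 of 3 on the panel) lay at 2598 to 3750 CPM, below the 5893 to 13100.0 CPM of DMSO pools, and 5 cartilage markers at 1650.0 to 2077 CPM, below 2776 to 5291 CPM. In 6 µM PFDS 6 liver markers lay at 4528 to 6768 CPM, below 7318 to 9269 CPM in DMSO pools, and in 600 µM PFHxA at 9937 to 11910 CPM, above 6878 to 9257 CPM. The 3 intestine markers lay at 1094 to 1287 CPM in 600 µM PFHxA, below 1498 to 1914 CPM in DMSO pools, and at 2576 to 4099 CPM in 400 µM PFOA, above 1416 to 2264 CPM. Ranges were also apart for blood in 600 µM PFBA (above) and immune cells in 12 µM PFDA (below). In 400 µM PFHxS and 40 µM PFOS the ranges of all 9 marker lists overlapped those of DMSO pools. The part of these markers in the fkbp5 levels was not tested.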

How the data were processed

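The authors deposited 1 table of read counts (whole numbers, with a different total in each library), and its values show no normalization. RNA was extracted with a Qiagen kit and sequenced on an Illumina NextSeq, per the labels' protocols. The submitters' processing notes name fastp 0.23.2, STAR 2.7.10b and R 4.4.1, with no role for each. Neither build nor counting step is stated in the sources used here, and no sequence or coordinate is printed. Of 3183 probes, 2995 have a symbol in the name tables used. Whether paralogous probes share reads was not tested.

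For each chemical, 5 concentrations and its DMSO pools were fitted together with edgeR 4.0.16 under R 4.3.3 (limma version 3.58.1, filterByExpr, TMM, glmQLFit, glmQLFTest, two-sided, Benjamini-Hochberg over all probes, threshold 0.05). Levels are TMM-scaled CPM: those of fkbp5 and of genes with a like pattern come from 1 scale over all embryo libraries, those beside tests from the chemical's fit. Alternatives were DESeq2 1.42.0, other scalings, no filter, other terms, other DMSO pools and each library left out. The share of all probes called was not computed for the alternatives or for unadjusted p, so counts given for these describe the listed genes alone. With extraction batch as a term, a change rests on the DMSO pools whose batch also holds exposed pools. These are only some of the DMSO pools for every chemical other than PFNA, where this term was not used. Exposure and extraction batch are therefore partly confounded for all of these chemicals. No 2 pools of a group agreed within sampling noise (chi-square over degrees of freedom 2.97 or more in 462 pairs). Steps were tested on simulated counts.

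The gene, the lists and the naming rule were chosen with earlier results of these data known. The rule names fkbp5, its family and nr3c1, up to 4 called members of each list per chemical at the highest concentration with the smallest p, and the 8 most and 3 least similar probes. Members named at lower concentrations, sentences that leave out some members of the rule, klf9 in PFNA, and hspa8 were chosen after values were seen. The 2 DMSO pools labelled outliers, 8 reference RNA and 4 water libraries were kept out of the fits, except that 1 alternative added the 2 DMSO pools, and the fkbp5 values of all 3 kinds are given apart.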

Additional observations from a re-analysis of the deposited data

Results flagged for a closer look

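Fkbp5 in PFOA 4 µM pool 1 was 35.2 CPM, and its gap to the nearest pool of the group (239 CPM) was 0.834 of the group's range. It was singled out among 47 groups by a rule on this gap that marks about 1 group in 20 by chance, and is given as a description. This pool is also 1 of the 5 that stood apart over all probes.

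At 600 µM all PFHxA pools were below the mean of the shared Ottawa DMSO pools and all PFBA pools above it, with a log2 difference of −1.29 between PFHxA and PFBA. PFHxS and PFHxA lay on opposite sides of that mean in the same way at 60 µM (1.69) and at 200 µM (1.96). These 3 differences were not tested, since fkbp5 was chosen with its levels known.

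Of the 2 DMSO pools that the labels set aside, pool 2 held 413 CPM of fkbp5, above all 6 Ottawa DMSO pools, and pool 1 held 183 CPM. Among libraries of reference RNA, libraries 3 and 4 of the second reference, both on plate 2, held 389.6 and 424 CPM of their total counts. That is above the highest DMSO pool on that scale (371 CPM). Libraries 1 and 2 of the same reference, both on plate 1, held 309.6 and 303.9 CPM. Water libraries held 38 to 49 fkbp5 counts of 165618 to 202586 in all. These were 212 to 260 CPM of their totals, and 37.6% to 48.5% of the fkbp5 count of the embryo pool that held fewest.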

How the results depend on the processing

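Leaving out 1 library at a time kept the sign of the fkbp5 change at the highest concentrations in 89 of 94 fits. Signs changed for PFBS 600 µM (−0.16 to 0.02) and PFOS 40 µM (−0.19 to 0.17), and PFHxS 400 µM ranged from 0.39 to 0.95. The change moved by less than 1 SD between pools in 94 of 94 fits. Leaving out 1 pool can hardly move it further than that, so this count says little. With each chemical's lowest concentration in place of DMSO, the change was 0.82 for PFBA 600 µM, −0.048 for PFHxA 600 µM, 0.22 for PFOA 400 µM, 0.99 for PFNA 450 µM, −0.15 for PFDA 1.2 µM, 0.18 for PFDA 12 µM, 0.23 for PFBS 600 µM and 0.97 for PFOS 40 µM. In that setting nrip1a in PFHxA (0.10), hsp90aa1.2 in PFOA (−0.092) and crebbpa in PFOA (−0.20) turned round. Calls lost in it were foxo3b, bcl6aa, nr3c1 and fkbp4 in PFHxA, and per1b, crebbpa, socs3a, cyp11c1 and nr3c1 in PFOS. Also lost were cebpb in PFOA, fkbp14 and ep300a in PFNA, nrip1a in PFHxS, and the chaperone list members bag3 and hsp90aa1.2 in PFDS. Glucocorticoid-responsive calls were then 3 in PFHxA, 0 in PFOA and 1 in PFBS, and chaperone calls were 3 in PFHxA and 0 in PFOA. With extraction batch as a term PFDA 12 µM was −0.12, glucocorticoid-responsive calls were 3 in PFOA, 2 in PFBS, 5 in PFHxS and 3 in PFOS, and chaperone calls were 1 in PFHxA, 0 in PFOA and 1 in PFDS. PFOA had 0 glucocorticoid-responsive calls with scaling by total counts, and 2 chaperone calls with both batch A DMSO groups pooled. That pooling gave 3 glucocorticoid-responsive calls in PFBS and 14 in PFDS. PFBS had 1 with DESeq2 size factors, 2 with total counts, 1 with no filter, 1 with plate as a term, 2 with the set-aside DMSO pools added, 3 without the pools that stood apart (added after seeing the data) and 4 with DESeq2. Without 1 library at a time glucocorticoid-responsive calls were 0 to 2 in PFOA, 0 to 2 in PFBS and 5 to 8 in PFDS, and chaperone calls were 2 to 5 in PFDS, with 2 without PFDS pool 4. The causes were not tested, and the share of all probes called in each of these settings was not computed. Replicate numbers do not pair the pools (r of −0.19 to 0.15, 0 of 9 chemicals with all pairs above 0.1), and with the replicate block PFOA had 0 glucocorticoid-responsive calls. Depth limits genes at a few CPM, such as fkbp14, more than fkbp5.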
